A study of Mus musculus with 13 samples.

Results

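Described here are 10 genes linked to astrocytes and Müller glia, the supporting cells of the optic nerve and retina. Not all are markers of these cells: Thbs2 and Slc6a11 are on neither of the marker lists used below. They were chosen by name: the channel and junction genes Kcnj10, Aqp4 and Gja1, the transporter genes Slc1a2, Slc1a3 and Slc6a11, the cytosolic protein genes Fabp7, Aldh1l1 and Crym, and the secreted protein gene Thbs2. Of the 10, 5 were found in at least 1 of the 3 tables of changed genes, which together hold 1592 different genes (10.5% of 15169 tested), and the other 5 were in none. RNA was sequenced from 13 samples of primary astrocyte cultures, which were grown in a medium with 10% serum; the cells were taken from the retina and optic nerve of C57BL/6 pups, wild type and 1 to 3 days old. Vehicle was given to 4 samples, and SB431542, HLM006474 or an inhibitor of RUNX1 to 3 samples each, all for 24 h. SB431542 inhibits the kinase of the type I TGF-beta and activin receptors, and HLM006474 is described as an inhibitor of E2F transcription factors. The third compound has a label that begins with Ro5 and heads the middle panel of the plots. It is described as an inhibitor of the transcription factor RUNX1 with its partner CBFB. It is called the RUNX1 inhibitor here, which names the treatment and not a measured effect. Whether any of the 3 compounds inhibited its described target in these cultures was not tested. Doses, and whether the samples of a group came from separate cultures or litters, are not stated in the labels, so the p-values speak only of the spread between these libraries, which could be technical.

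Astrocytes and Müller glia take up potassium and transmitter released by neurons, can be coupled by gap junctions, and move water through channels in their membranes. Kcnj10 encodes Kir4.1, the inward rectifier potassium channel of both cell types, Aqp4 the water channel beside it, and Gja1 connexin 43. Slc1a2 and Slc1a3 encode the glial glutamate transporters and Slc6a11 the GABA transporter GAT-3. Fabp7, brain lipid binding protein, is typical of immature astrocytes and radial glia, and Aldh1l1 is a folate enzyme widely used as an astrocyte marker. Thbs2, thrombospondin 2, is secreted by immature astrocytes and promotes the formation of synapses. Crym, mu-crystallin, binds thyroid hormone in the cytosol and is found in Müller glia.

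The stretches of genome where transcription of the 3 most abundant listed members starts are shown first, because the compounds act on pathways that end at transcription factors. Each runs from 250 bases before to 50 bases after the start, as given by RefSeq for GRCm38.p6, and is written 5′ to 3′ on the strand of the gene. Capitals mark the core letters of a SMAD site, CAGAC or its reverse complement GTCTG. Kcnj10 starts on the plus strand, at chr1:172340960-172341259. Fabp7 starts on the plus strand, at chr10:57784673-57784972. Thbs2 starts on the minus strand, at chr17:14694213-14694512.
Kcnj10: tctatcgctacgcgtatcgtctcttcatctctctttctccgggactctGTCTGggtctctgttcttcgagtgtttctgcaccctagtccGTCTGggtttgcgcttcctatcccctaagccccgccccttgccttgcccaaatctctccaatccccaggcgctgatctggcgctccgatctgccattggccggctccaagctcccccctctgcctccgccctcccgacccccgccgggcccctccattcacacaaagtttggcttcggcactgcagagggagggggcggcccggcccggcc
Fabp7: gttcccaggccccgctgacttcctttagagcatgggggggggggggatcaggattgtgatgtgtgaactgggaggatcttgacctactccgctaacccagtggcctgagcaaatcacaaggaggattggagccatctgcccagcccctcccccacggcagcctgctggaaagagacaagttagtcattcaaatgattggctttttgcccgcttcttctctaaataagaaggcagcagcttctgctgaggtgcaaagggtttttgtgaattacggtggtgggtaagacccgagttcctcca
Thbs2: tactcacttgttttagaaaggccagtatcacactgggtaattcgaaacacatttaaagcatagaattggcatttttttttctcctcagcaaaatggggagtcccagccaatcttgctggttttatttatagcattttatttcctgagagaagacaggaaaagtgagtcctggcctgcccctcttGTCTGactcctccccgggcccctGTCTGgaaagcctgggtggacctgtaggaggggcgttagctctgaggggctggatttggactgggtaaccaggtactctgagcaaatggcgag
The RefSeq table matched 8 of the 10 members, all but Crym and Aqp4. The SMAD core was found 2 times in the window of Kcnj10, beginning 202 and 161 bases before the start, and 2 times in that of Thbs2, beginning 66 and 43 bases before it. It was in no window of the other 6 members, Fabp7 among them. The same letters are in 49.6% of all 32851 windows of this length, so a match is common. The RUNX core TGTGGT, present on either strand in 16.8% of all windows, and the E2F core TTTNNCGC, present in 5.17%, were in none of the 8. These are matches of letters only, searched on both strands, and no binding was measured.

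Members that changed were lower than in vehicle, in every table that listed them. Fabp7 and Crym were lower under both the RUNX1 inhibitor and HLM006474, Thbs2 under both SB431542 and HLM006474, Kcnj10 under SB431542 and Slc6a11 under HLM006474. Of the 8 levels 7 lay between 58.4% and 64.0% of vehicle, and Crym under HLM006474 fell further, to 39.1%. The values are the authors' own: a gene was listed when the adjusted p of the Wald test in DESeq2 was under 0.05 and the fold change was about 1.5 or more. Fold changes are on the log2 scale with the authors' standard error, and percentages of vehicle and their 95% intervals were computed from both. Values per sample were not analysed here, so no replicate value or SD can be shown, it is unknown whether groups overlap, and the depth of the libraries is unknown.

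SB431542 listed 2 of the 10 members, both lower, where 4.93% of the 15169 genes tested were listed and 2.64% were listed as lower. The RUNX1 inhibitor also listed 2, both lower, beside 2.93% of 13561 genes tested and 2.32% listed as lower. HLM006474 listed 4, all lower, beside 5.64% of 15169 genes tested and 4.22% listed as lower. The share of members listed, 20% under SB431542, 20% under the RUNX1 inhibitor and 40% under HLM006474, was above these background shares, but the genes were chosen with results of these data known, so the counts are a description. All 3 comparisons use the same vehicle samples. In bulk RNA of a culture with several cell types, fewer astrocytes and less RNA of a gene per astrocyte cannot be told apart.

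**Figure D1:**
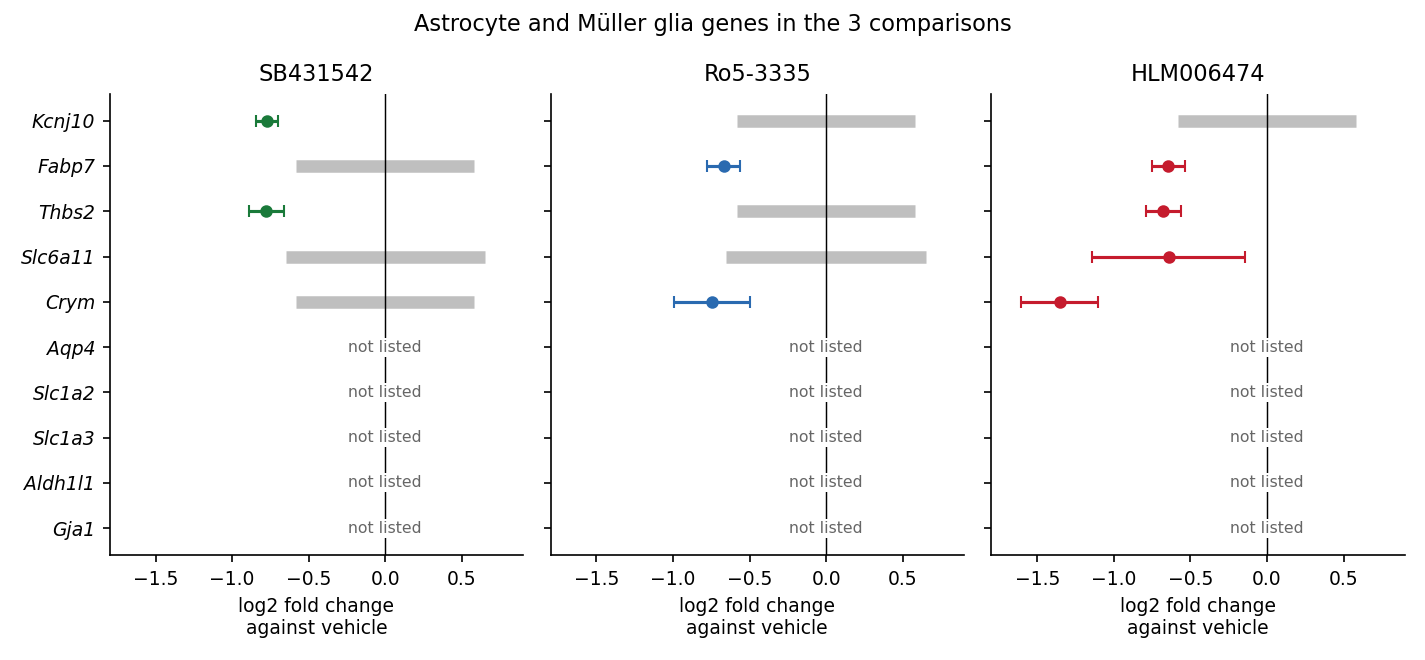
Log2 fold change against vehicle (horizontal axis) of the 10 genes (vertical axis) under each compound; points are the authors' values with 95% intervals, and grey bars span the changes that would have kept a gene out of that table. All 8 listed values lie below 0, and Crym under HLM006474 at -1.35 lies farthest from it.

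Of the channel and junction genes, Kcnj10 was the one listed. Its gene lies at chr1:172341210-172374085 in GRCm38 and its mean normalised count over all samples was 23892.5, the 8th highest of the 748 genes in the authors' deposited table for SB431542. Under SB431542 it stood at -0.77 ± 0.037 (log2, SE, adjusted p = 3.64e-96 by DESeq2) in the authors' deposited table. That is 58.5% of vehicle, with an interval from 55.6% to 61.5%. It ranked 16 of 748 by adjusted p, while 259 of the 401 lower genes had fallen further: Kcnj10 had a moderate change with a small error. Kcnj10 was outside the tables of the RUNX1 inhibitor and HLM006474. If its error there was as under SB431542, a log2 change past 0.58 in either direction would have been listed, and its level was between 66.9% and 149.5% of vehicle. The change under SB431542 passed that limit by 0.19 on the log2 scale, which is 3.74 and 3.73 standard errors of a difference for the RUNX1 inhibitor and HLM006474. No fold change is given for Kcnj10 under those 2 compounds, so the difference itself was not tested. Aqp4 and Gja1 were in none of the 3 tables, and neither their levels nor their changes were analysed here.

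Of the transporter genes, Slc6a11 was listed under HLM006474 alone, at -0.64 ± 0.25 (adjusted p = 0.0452 by DESeq2) in the authors' deposited table. Its level was 64.0% of vehicle, but the interval ran from 45.4% to 90.4%. The mean normalised count of 65.3 was low, and it ranked 833 of 856 by adjusted p in this table. The gene lies at chr6:114131241-114249952. Under SB431542 and the RUNX1 inhibitor a change would have had to pass 0.65 on the log2 scale to be listed, which is as large as the value under HLM006474. A difference between the compounds was therefore not detectable for Slc6a11. The glutamate transporter genes Slc1a2 and Slc1a3 were in none of the 3 tables.

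Fabp7 lies at chr10:57784881-57788450 and had a mean normalised count of 18965, the 4th highest of the 397 genes in the authors' deposited table for the RUNX1 inhibitor. Under the RUNX1 inhibitor it stood at -0.67 ± 0.055 (adjusted p = 7.22e-31 by DESeq2), or 62.9% of vehicle with an interval from 58.3% to 67.8%, in the authors' deposited table. HLM006474 gave nearly the same value, -0.64 ± 0.055 (adjusted p = 5.85e-29 by DESeq2), or 64.0% with an interval from 59.3% to 69.0%, in the authors' deposited table. Fabp7 was not listed under SB431542, where a log2 change past 0.58 would have been listed. The values of -0.67 and -0.64 lie close to that limit, and the larger passes it by 0.09, or 1.14 standard errors of a difference. Whether SB431542 differed from the other two compounds for Fabp7 cannot be seen from these tables. Aldh1l1, the other general astrocyte marker of the cytosol among the members, was in none of the 3 tables.

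The gene of the secreted protein Thbs2 lies at chr17:14665500-14694235 and had a mean normalised count of 4003. Under SB431542 it stood at -0.78 ± 0.058 (adjusted p = 7.70e-39 by DESeq2), or 58.4% of vehicle with an interval from 54.0% to 63.2%, in the authors' deposited table. Under HLM006474 it stood at -0.68 ± 0.058 (adjusted p = 1.36e-29 by DESeq2), or 62.5% with an interval from 57.8% to 67.6%, in the authors' deposited table. Thbs2 was outside the table of the RUNX1 inhibitor, where its log2 change was thus within 0.58 of vehicle if its error was alike. The change under SB431542 passed that limit by 0.20, or 2.40 standard errors of a difference, and the change under HLM006474 lay closer to it. No fold change is given for Thbs2 under the RUNX1 inhibitor, so its difference from the other compounds was not tested.

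Crym had the largest change of the 5 listed members. It lies at chr7:120186380-120202111 and had a mean normalised count of 422. Under HLM006474 it stood at -1.35 ± 0.13 (adjusted p = 1.53e-23 by DESeq2) in the authors' deposited table. That is 39.1% of vehicle, with an interval from 32.8% to 46.6%, and 87 of the 640 lower genes of the table had fallen further. Under the RUNX1 inhibitor it stood at -0.75 ± 0.13 (adjusted p = 1.15e-07 by DESeq2), or 59.6% with an interval from 50.3% to 70.8%, in the authors' deposited table. Crym was outside the table of SB431542, where its log2 change was within 0.58 if its error was alike. The change under HLM006474 passed that limit by 0.77, or 4.24 standard errors of a difference, and the change under the RUNX1 inhibitor lay closer to it. No fold change is given for Crym under SB431542, so its difference from the other compounds was not tested.

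**Figure D2:**
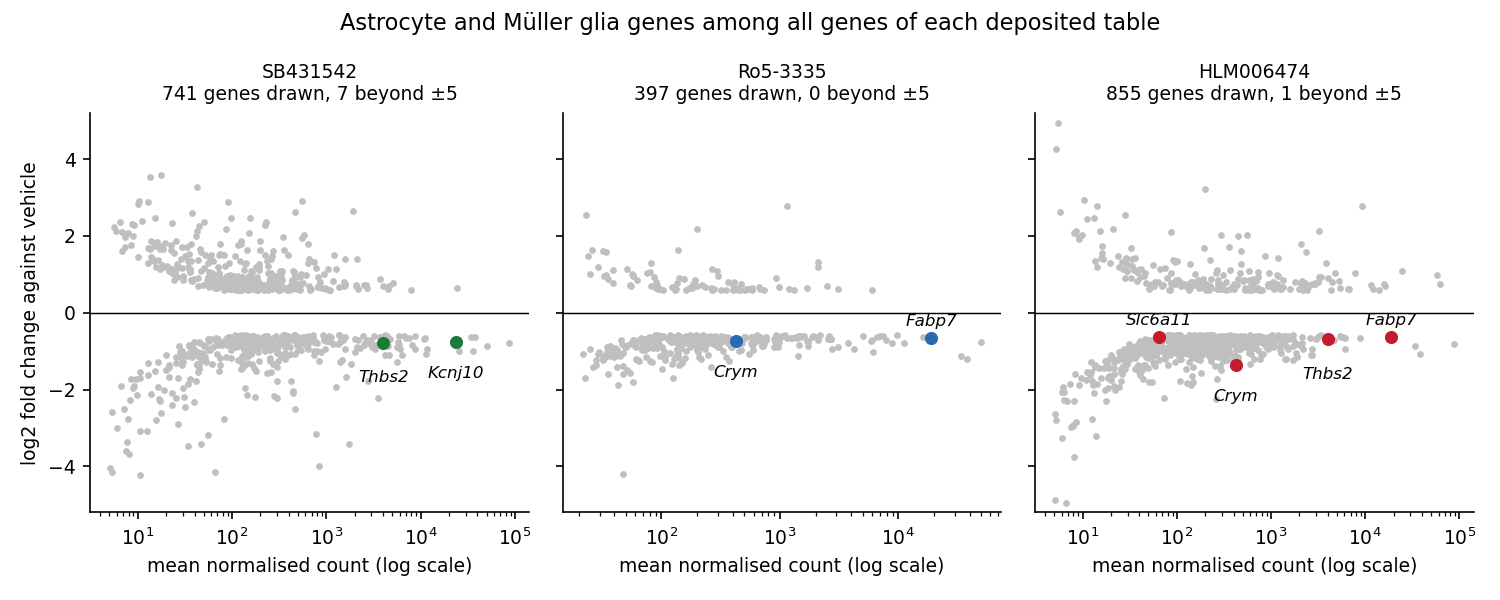
Log2 fold change against vehicle (vertical axis) and mean normalised count (horizontal log axis) of the genes in each of the 3 deposited tables, with listed members in colour; genes beyond ±5 are not drawn. Kcnj10, Fabp7 and Thbs2 lie among the genes with high counts and small falls, and Crym under HLM006474 lies lower than most genes of similar count.

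A difference between compounds could be tested for 3 members, each listed in a pair of tables, and was found for Crym. The log2 change of Crym under HLM006474 was lower than that under the RUNX1 inhibitor by an amount of -0.61 ± 0.18 (SE), with a 95% interval from -0.96 to -0.26. The 2-sided z test gave an adjusted p of 0.0128 over the 210 genes in both tables, of which 9.52% passed. Fabp7 differed between the same compounds by 0.03 ± 0.078, with an interval from -0.13 to 0.18 (z test, adjusted p = 0.998). For Thbs2 the change under HLM006474 minus that under SB431542 was 0.10 ± 0.082, with an interval from -0.06 to 0.26 (z test, adjusted p = 0.387 over 161 genes, of which 32.9% passed). Neither passed the test, and differences of up to 0.18 for Fabp7 and 0.26 for Thbs2 on the log2 scale are within the intervals. The z test covers genes that passed the limits of both tables, a selected set, and its error leaves out the shared vehicle samples, which makes it too large.

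**Figure D3:**
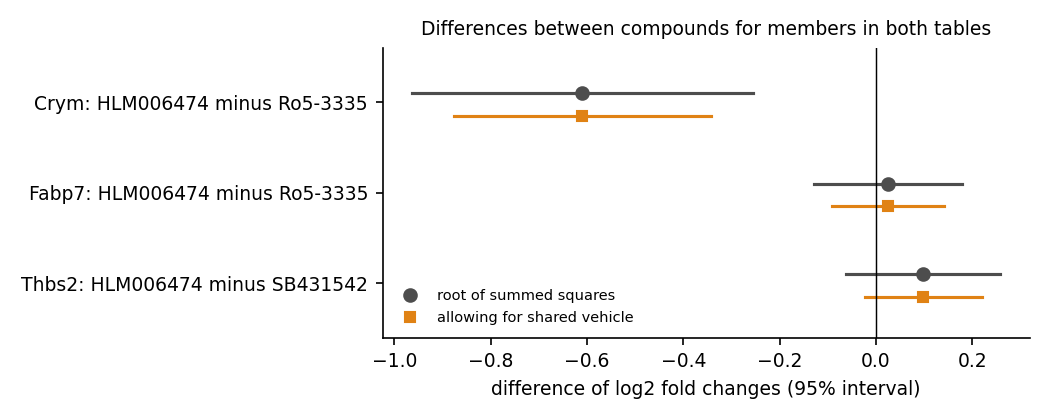
Difference of log2 fold changes between 2 compounds (horizontal axis) for the 3 members in both tables, with 95% intervals from the root of the summed squared errors (circles) and from an error that allows for the shared vehicle samples (squares). Both intervals exclude 0 for Crym, at -0.61, and include it for Fabp7 and Thbs2.

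Per kilobase of merged exons, the listed members covered a wide range of levels. The mean normalised count per kilobase was 15172 for Fabp7, 4419 for Kcnj10, 572 for Thbs2, 124 for Crym and 12.9 for Slc6a11. Exon lengths came from GENCODE M21, while the annotation behind the authors' counts is not known. The mean over all 13 samples and the fold changes together limit the mean level of a group, if each fold change is read as a ratio of group means and each unlisted change as within its limit. Read that way, the vehicle mean of Crym was between 479 and 612 normalised counts, against 286 to 365 under the RUNX1 inhibitor and 187 to 239 under HLM006474. For Fabp7 the vehicle mean was between 20061 and 25128, against 12609 to 15794 under the RUNX1 inhibitor and 12835 to 16078 under HLM006474. For Kcnj10 it was between 21092 and 31801 in vehicle and between 12336 and 18599 under SB431542. For Thbs2 it was between 4297 and 5402 in vehicle, 2509 to 3155 under SB431542 and 2686 to 3377 under HLM006474. Slc6a11 was limited to between 55.3 and 87.1 in vehicle and between 35.4 and 55.8 under HLM006474. The bounds within 1 gene move together, and errors of the fold changes are not included.

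Beside the members, 79 further genes of the same kinds were followed in 9 lists of channels, transporters, binding proteins, secreted proteins and markers. SB431542 listed 9 of the 79, or 11.4%, with 5 lower and 4 higher, where 4.93% of all genes tested were listed, 2.64% as lower and 2.29% as higher. The RUNX1 inhibitor listed 3, or 3.8%, all lower, which is near the 2.93% of all genes listed and the 2.32% listed as lower (0.605% as higher). HLM006474 listed 7, or 8.86%, with 5 lower and 2 higher, where 5.64% of all genes were listed, 4.22% as lower and 1.42% as higher. No test of a list was made. The median log2 change of those listed was -0.65, -0.59 and -0.88 for SB431542, the RUNX1 inhibitor and HLM006474, where the median of all listed genes was -0.61, -0.71 and -0.74. These medians pool falls and rises that had all passed the fold limit. They depend on how many genes went each way, so they do not give the size of a typical change.

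In any of the 3 tables were between 9.09% and 37.5% of the genes of each of the 9 lists, members included, beside 10.5% of all genes tested. The lists hold 7 to 20 genes, so that 1 gene is 5.0% to 14.3% of a list, and the counts that follow are descriptions. Of 20 astrocyte markers 3 were in any table, Kcnj10 and Fabp7 among them. Levels of the other 17, among them Gfap, Aqp4, Aldh1l1 and S100b, were not analysed here, so the labelled cell type was checked on 3 markers only.

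Among potassium channels 2 of 7 were listed in any table, Kcnj10 and its partner subunit Kcnj16, which stood at -0.69 ± 0.13 under HLM006474 in the authors' deposited table. Glutamate and amino acid transporters listed 2 of 11. The neuronal type glutamate transporter gene Slc1a1 stood at -1.13 ± 0.17 under HLM006474 in the authors' deposited table. The cystine transporter gene Slc7a11 rose, by 1.48 ± 0.23 under HLM006474 and 0.80 ± 0.23 under SB431542, in the authors' deposited tables. GABA and glycine transporters listed 2 of 8, Slc6a11 and the glycine transporter gene Slc6a9, which stood at -0.80 ± 0.24 under SB431542 in the authors' deposited table.

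The list of gap junctions and water channels had 1 of 11 genes in a table, the water channel gene Aqp1, which is not the astrocytic one. Aqp1 rose by 0.87 ± 0.12 under SB431542 and stood at -1.13 ± 0.13 under HLM006474 in the authors' deposited tables. The difference of -2.01 ± 0.18 between HLM006474 and SB431542 passed the z test (adjusted p = 3.46e-28). Of 8 lipid binding genes 3 were listed. Besides Fabp7 these were Fabp4, typical of fat cells and macrophages, which rose by 1.09 ± 0.36 at a mean count of 24.2 under SB431542 in the authors' deposited table, and Crabp1. Crabp1, a retinoic acid binding protein gene, rose by 0.94 ± 0.19 under SB431542 and stood at -0.88 ± 0.21 under HLM006474 in the authors' deposited tables. Its difference between the compounds, -1.81 ± 0.28, passed the z test as well (adjusted p = 1.89e-09).

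Thrombospondins and other secreted genes that act on synapses listed 3 of 14, all lower where listed. Thbs2 was joined by the glypican gene Gpc6 at -0.83 ± 0.086 and the tenascin gene Tnc at -0.65 ± 0.065 under SB431542, in the authors' deposited table. Under the RUNX1 inhibitor Tnc stood at -0.79 ± 0.065 in the authors' deposited table. Of 10 thyroid hormone genes 3 were listed, each in another way. Crym is described above, the hormone inactivating enzyme gene Dio3 stood at -1.05 ± 0.12 under SB431542, and the receptor gene Thrb rose by 0.59 ± 0.16 under HLM006474, in the authors' deposited tables. Of 12 Müller glia markers Crym and Rlbp1 were listed. Rlbp1, the retinal carrier CRALBP of Müller glia, stood at -0.58 ± 0.18 under the RUNX1 inhibitor (adjusted p = 0.0111 by DESeq2) in the authors' deposited table, at the fold limit. The other 10, among them Glul, Sox2 and Lhx2, were in no table.

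Markers of other cells that such cultures can hold were also listed, and their part in the changes of the 10 genes was not tested. Of 12 oligodendrocyte lineage markers 7 were lower under HLM006474, 1 under SB431542 and none under the RUNX1 inhibitor, where 4.22%, 2.64% and 2.32% of all genes tested were listed as lower. In the authors' deposited table for HLM006474 Pdgfra and Mbp had the highest mean counts of the 7, 930 and 770, and stood at -0.84 ± 0.14 and -1.20 ± 0.35. Microglia and macrophage markers were listed in 7 of 12 cases under SB431542, 5 lower and 2 higher, and in 4 of 12 under HLM006474, 3 lower and 1 higher, beside 4.93% and 5.64% of all genes listed. The most abundant was Lyz2, with a mean count of 24249, which rose by 0.65 ± 0.18 under SB431542 and 1.08 ± 0.18 under HLM006474 in the authors' deposited tables. Fibroblast and mural markers were lower in 5 of 10 cases under SB431542, 2 under the RUNX1 inhibitor and 4 under HLM006474, beside 2.64%, 2.32% and 4.22% of all genes. Cspg4 is on both this list and the oligodendrocyte list, and it is counted in both under SB431542 and HLM006474. It is the only oligodendrocyte marker listed under SB431542. The contractile gene Acta2 was in all 3 tables, at -0.64 ± 0.078 under SB431542, -1.19 ± 0.078 under the RUNX1 inhibitor and -1.09 ± 0.078 under HLM006474, in the authors' deposited tables. The endothelial list had 1 gene in a table, Flt1, lower under SB431542 and the RUNX1 inhibitor, and the Schwann cell list had 1, Prx, lower under the RUNX1 inhibitor and HLM006474. From the 9 neuron and photoreceptor markers Tubb3 was lower under the RUNX1 inhibitor and Syt1 under HLM006474, and the pigment epithelium list had none in a table. Summed marker levels per group could not be formed, because levels are known only for listed genes.

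**Figure D4:**
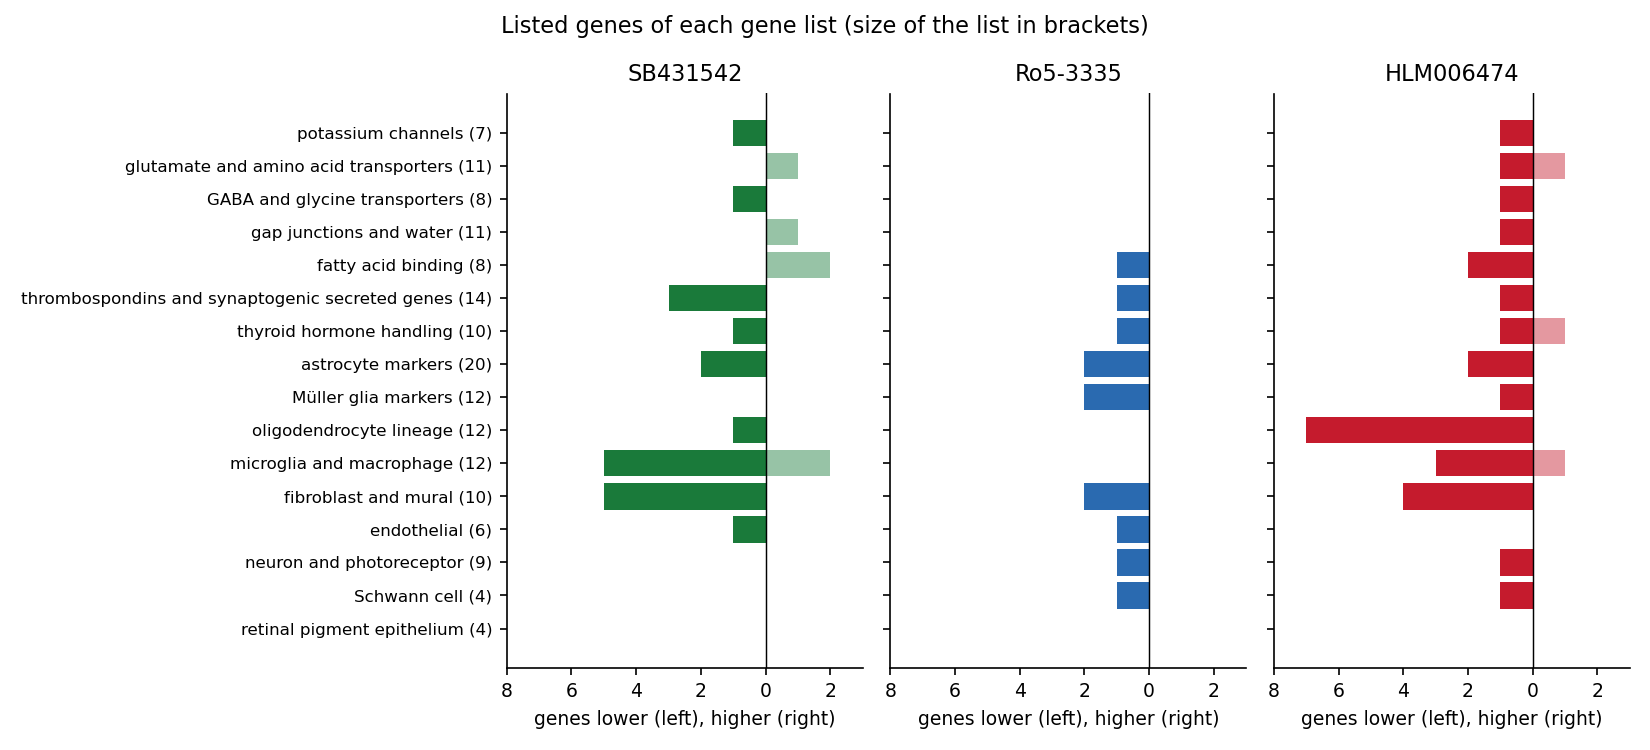
Number of genes of each list (vertical axis, list size in brackets) that were lower (bars to the left) or higher (bars to the right, paler) in the deposited table of each compound. The longest bar is that of the oligodendrocyte lineage under HLM006474, with 7 of 12 genes lower. No gene of the lists named astrocyte markers and Müller glia markers was higher. Over all 9 astrocyte and Müller glia lists, 4 genes were higher and 7 lower under SB431542. Under HLM006474 2 were higher and 9 lower, and under the RUNX1 inhibitor 0 were higher and 5 lower.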

How the data were processed

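CASAVA 1.8, STAR 2.7 and DESeq2 1.30.1 were used with genome build GRCm38, per the submitters' processing notes. The read counter is not given in the sources used. Each of the 3 deposited tables compares 1 compound with vehicle. Per the file headers they hold a mean normalised count (a signal averaged over libraries by the authors), a log2 fold change, its standard error, a Wald score, and a p-value with its adjusted p-value, all the authors' own. Tables that list the same gene give it the same mean count, so 1 normalisation covered all samples. Tables list genes with adjusted p under 0.05 and fold of at least about 1.5. Shares in any table are taken over the largest number tested. An unlisted gene was taken to have missed these limits, though it may also have had no p-value.

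The number of genes tested is the smallest that makes most ranks, p times that number over adjusted p, whole within 0.02; 80.5%, 83.6% and 81.1% of ranks were whole for SB431542, the RUNX1 inhibitor and HLM006474. Differences between compounds were tested with a 2-sided z test and Benjamini-Hochberg adjustment over genes in both tables. The limit for an unlisted member is the larger of the fold limit and the change that its error elsewhere would need. Between tables, the errors of shared genes had median ratios of 1.00. Python 3.11.15, pandas 2.3.3, numpy 2.4.6 and scipy 1.17.1 were used.

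The genes and lists were chosen with earlier results of these data known. All 10 members, all listed genes of the 9 astrocyte and Müller glia lists, and up to 3 of the highest mean count of each other marker list were to be named; some of these are not reported here. Depth per sample is unknown, so precision is stated by the authors' errors.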

Additional observations from a re-analysis of the deposited data

How the results depend on the processing

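With a fold of at least 2, the members listed were 0 under SB431542, 0 under the RUNX1 inhibitor and 1 under HLM006474, which was Crym. Of the 89 different genes of the 9 astrocyte and Müller glia lists, members included, 2, 0 and 4 were then listed, down from 11, 5 and 11. The shares of all genes tested that pass this fold, or the other limits below, were not computed. Whether these counts fell more than those of all listed genes is therefore not known. An adjusted p under 0.01 removed Slc6a11 from the members listed for HLM006474 and left the other counts of members as they were. A mean count of at least 100 did the same. The 3 differences between compounds for Crym, Fabp7 and Thbs2 kept their side of the threshold with an error that allows for the shared vehicle samples, where the adjusted p was 0.000138, 0.910 and 0.188 (z test), and over genes with a mean count of at least 100. The difference of Slc7a11 between HLM006474 and SB431542 passed the z test with that error (adjusted p = 0.0173) and not without it (adjusted p = 0.105). An error raised to the 95th percentile of its ratio between tables moved the limit of Slc6a11 from 0.65 to 0.70 for SB431542 and to 0.67 for the RUNX1 inhibitor. No paired analysis was possible because the tables hold no value per sample, and leaving out single replicates was not run for the same reason. Depth per sample is unknown; of the 5 listed members Slc6a11 had the lowest mean count, 65.3, and the widest interval.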
